A study of Homo sapiens with 2 samples.

Results

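The 40 genes described here are MYC, its partner MAX and 38 factors that work in or around the nucleolus to make ribosomes. They were taken by gene name from a fixed list and not by a cut on their measured levels. The list was, however, chosen with earlier results of these data known. All 40 were found among the 13924 genes of the deposited FPKM tables and among the 61806 genes of the deposited count table. HEL is an established human erythroleukemia cell line, labelled WT, and a single line is the only cell model here. HEL cells received either the vehicle, 0.5% DMSO, or L1, a derivative of diindolylmethane, at 1 µM, each for 24 h. Each condition gave 1 library of bead-captured mRNA, with 32556872 counts for DMSO and 27135647 for L1. There was thus no replicate check and no test was run, and an effect of L1 and variation between cultures cannot be told apart.

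MYC is a transcription factor that binds DNA as a pair with MAX, preferably at the E-box letters CACGTG, and genes for ribosome production are among its best known targets. Ribosomal RNA is transcribed by RNA polymerase I in the nucleolus, is modified there by small nucleolar ribonucleoproteins (snoRNPs), and is folded and cut into the RNAs of the small (40S) and large (60S) subunits by a long series of assembly factors. Proliferating leukemia cells have large nucleoli and high levels of these factors.

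The erythroid label of the cells was checked against marker genes. All 7 erythroid markers were present, from 356 counts for EPOR in the L1 library to 20372 for HBG2 in the same library, and 3 of 4 megakaryocytic markers were present as well, ITGA2B with 40168 counts under DMSO and 35288 under L1, FLI1 with 15763 and 12403 and GP9 with 1989 and 1325, while PF4 was at 0 in both libraries. Of the markers of other cell types, CD3D, CD3E, MS4A1, EPCAM and KRT5 were at 0 in both libraries. LYZ (647 and 486 counts), CD79A (113 and 60) and CD2 (57 and 55), which mark monocytes, B cells and T cells, had counts in both. CSF1R, another monocyte marker, had 36 counts under DMSO and 2 under L1. Each other listed marker outside the erythroid and megakaryocytic sets had at most 5 counts in a library.

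The RefSeq promoter table (GRCh38.p14) gives windows from 250 bases before to 50 bases after a gene's start, and it held 35 of the 40 genes. MYC, NOP58, NOLC1, RRP12 and BOP1 had no entry. The letters CACGTG, which read the same on both strands, occurred in at least 1 window of 15 of the 35 genes (42.9%). They occurred for 8.77% of all 27305 genes of the table and for 12.4% of the 10343 protein-coding genes with at least 10 counts in a library. Most of the difference lay after the start. Counting only the bases before it, the letters were found for 4 members (11.4%) against 11.1% of those protein-coding genes. Of 16 matches in the 15 genes, 15 were within 50 bases of the start, 10 after it, 5 before it and 1 across it. Up to 30 bases around some of these matches are shown on the strand of the gene, with the E-box in capitals, because they are the sequence that the DNA-binding pair of MYC and MAX is known to prefer.
UTP20, chr12:101280083-101280112, plus strand: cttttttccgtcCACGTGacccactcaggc
NAT10, chr11:34105602-34105631, plus strand: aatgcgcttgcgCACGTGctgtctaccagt
NOP10, chr15:34343130-34343159, minus strand: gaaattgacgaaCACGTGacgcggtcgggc
RRP9, chr3:51941892-51941921, minus strand: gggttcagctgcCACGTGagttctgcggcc
WDR43, chr2:28894658-28894687, plus strand: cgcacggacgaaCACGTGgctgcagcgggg
GNL3, chr3:52686026-52686055, plus strand: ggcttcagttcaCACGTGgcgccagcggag
FBL, chr19:39846356-39846385, minus strand: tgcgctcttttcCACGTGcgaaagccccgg
NOP2, chr12:6568242-6568268, minus strand: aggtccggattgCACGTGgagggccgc

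The matches of UTP20, NAT10 and NOP10 lie before the start, that of RRP9 spans it, and the other 4 lie after it. A match is a description of letters and shows no binding. The ribosome factors with and without the letters had overlapping ratios between the libraries. On the log2 scale of L1 over DMSO, the 15 with an E-box had a median of 0.03, from -0.22 (NOP2) to 0.27 (UTP20), and the 19 without one had a median of 0.08, from -0.89 (PPAN) to 0.80 (UTP15). No window of MAX or UTP15 held the letters.

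Each member's counts were compared between the libraries after TMM scaling, which sets 1.16 counts in DMSO equal to 1 count in L1. The log2 ratio of L1 over DMSO is given with an exact 95% interval from the split of the counts (Clopper-Pearson), which covers counting error only. All 40 members had at least 1000 counts in at least 1 library. Just 2 of the 40, MYC and MAX, had L1 values at least 2-fold above those of DMSO, and 0 were at least 2-fold lower. Among all 18123 genes with at least 10 counts, 7.12% were at least 2-fold higher and 4.83% lower, and among the 6479 genes with at least 1000 counts these shares were 2.04% and 2.08%. At 1.5-fold, 3 members were higher (UTP15 in addition) and 1 was lower (PPAN), beside 13.8% and 11.4% of all genes and 5.19% and 6.22% of the genes with at least 1000 counts.

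The members as a set lay close to no difference. Their median log2 ratio was 0.06, with quartiles at -0.03 and 0.18, against a median of -0.03 and quartiles at -0.22 and 0.15 over the 6479 genes with at least 1000 counts. Without MYC and MAX the median of the 38 ribosome factors was 0.05, with 23 above 0 and 15 below, while 8998 of all 18123 genes and 2966 of the 6479 genes with at least 1000 counts were above 0. The whole counting interval was above 0 for 17 of the 40 members and below 0 for 8, and it held 0 for the other 15. The same shares over genes with at least 1000 counts were 34.1% above and 41.8% below, so an interval off 0 was common at this depth. All ratios are relative to the TMM-scaled size of each library, and in bulk RNA fewer cells with a transcript and less transcript per cell cannot be told apart.

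**Figure D1:**
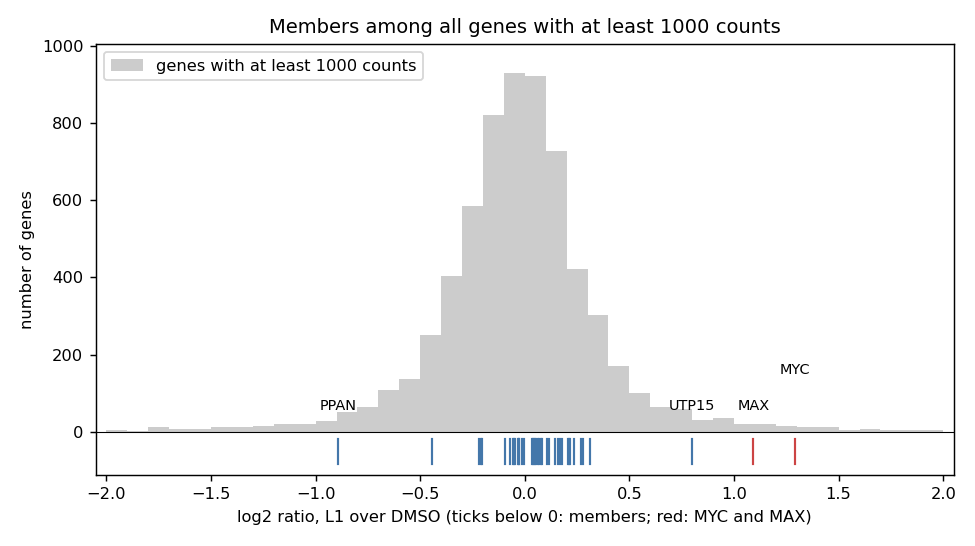
Histogram of the log2 ratio of L1 over DMSO for the genes with at least 1000 counts in a library (bins of 0.1, 53 genes outside the axis), with a tick below the axis for each of the 40 members. Most ticks sit in the bulk around 0, MYC and MAX (red) lie past 1, UTP15 lies at 0.80 and PPAN at -0.89.

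MYC (ENSG00000136997, chromosome 8 from 127735434 to 127741434 on GRCh38, plus strand) had 724 counts under DMSO and 1527 under L1. Its deposited FPKM, a level per length of gene, was 4.97 in DMSO and 12.1 in L1. The L1 library was therefore 2.44-fold higher after scaling (log2 ratio 1.29, interval 1.16 to 1.42). Of the genes with at least 1000 counts in a library, 98.8% had a lower ratio. MYC reached 1000 counts only in the L1 library, where it was higher, so this rank depends in part on that filter. MAX (ENSG00000125952, chromosome 14 from 65006174 to 65102695, minus strand) had 2365 counts under DMSO and 4351 under L1, with FPKM of 11.9 and 25.4. That is 2.13-fold higher in L1 (log2 ratio 1.09, interval 1.02 to 1.17), above 98.2% of those genes. The whole counting interval of both genes was past 2-fold. Neither gene shares any 31-base word with transcripts of another gene, and the antisense gene that overlaps MAX, AL139022.1, had 2 counts under DMSO and 0 under L1.

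Other genes of the MYC and MAX network were taken from a list of 21, of which 20 had enough counts. Their median log2 ratio was 0.05, and 0 were at least 2-fold higher and 1 was lower, beside 7.12% and 4.83% of all genes. The lower gene was MXD1, which encodes a repressor that competes with MYC for MAX. It had 567 counts under DMSO and 35 under L1 (log2 ratio -3.80, interval -4.34 to -3.31). Exons of MXD1 overlap those of SNRNP27, which had 1611 and 807 counts, and the sum of both genes had a log2 ratio of -1.16. MYCL, a paralog of MYC, had 121 and 63 counts (-0.73). At the other end stood MYCBP, which encodes a MYC-binding protein, with 1597 and 1842 counts (0.42), and RUVBL1, an ATPase that associates with MYC, with 2287 and 2616 counts (0.41). MNT (-0.28), MGA (0.10) and MXI1 (0.06), which encode other partners of MAX and were chosen after their values were seen, lay nearer to 0 than MXD1.

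RNA polymerase I transcribes the large ribosomal RNA precursor. Of 6 members in this group, the whole interval was above 0 for 3, below 0 for 1 and held 0 for 2. Among the genes with at least 1000 counts, it was above 0 for 34.1% and below 0 for 41.8%. The median log2 ratio of the group was 0.03. POLR1A, the largest subunit, had 7058 counts under DMSO and 6444 under L1 (log2 ratio 0.08, interval 0.03 to 0.13). POLR1B, which forms the catalytic core with it, had 3991 and 2975 counts (-0.21, interval -0.28 to -0.14). The intervals of these partner subunits did not overlap. POLR1C, a subunit shared with RNA polymerase III, had 1308 and 1247 counts (0.14, interval 0.03 to 0.26). On the opposite strand it shares 348 exon bases with XPO5 (5603 and 5013 counts), 129 with YIPF3 (1878 and 1339) and 392 with AL355802.2 (55 and 52).

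RRN3, the factor that makes the polymerase competent to start, had the highest ratio of the group, with 4354 counts under DMSO and 4555 under L1 (log2 ratio 0.28, interval 0.22 to 0.34) and FPKM of 33.1 and 40.1. Of its 31-base words, 29.5% also occur in transcripts of other genes. Summed with 3 pseudogene copies on chromosome 16, which had 795 and 631 counts together, it had a log2 ratio of 0.22. UBTF, which holds ribosomal DNA in its active state, had 6506 and 5438 counts (-0.05), and MYBBP1A, a nucleolar MYB-binding protein, had 1070 and 906 counts (-0.03). The intervals of both held 0.

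Box C/D snoRNPs guide 2′-O-methylation of ribosomal RNA. NOP56, a core scaffold protein, had 7668 counts under DMSO and 7789 under L1 (log2 ratio 0.24, interval 0.19 to 0.28), with FPKM of 48.7 and 57.4. Its partner in the scaffold, NOP58, had 8410 and 7494 counts (0.05), and FBL, the methyltransferase fibrillarin, had 8424 and 7133 counts (-0.03, interval -0.07 to 0.02). RRP9, which binds the U3 snoRNA, had 1171 and 1166 counts (0.21, interval 0.09 to 0.33). NOP56 was thus above NOP58 and FBL by more than counting error, although all act in the same particle.

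Box H/ACA snoRNPs guide pseudouridylation. DKC1, the pseudouridine synthase dyskerin, had 6238 counts under DMSO and 6048 under L1 (log2 ratio 0.17, interval 0.12 to 0.22), and NHP2, a core protein, had 4279 and 4172 counts (0.18, interval 0.11 to 0.24). The other core proteins, NOP10 with 5751 and 4909 counts (-0.02) and GAR1 with 1178 and 1095 counts (0.11), had intervals that held 0. NOLC1, a nucleolar chaperone of these particles, had 9332 and 7665 counts (-0.07, interval -0.11 to -0.03). The group median was 0.11, and no member of it reached 1.5-fold. NHP2 shares 414 exon bases with RMND5B on the opposite strand, which had 3431 and 2737 counts.

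**Figure D2:**
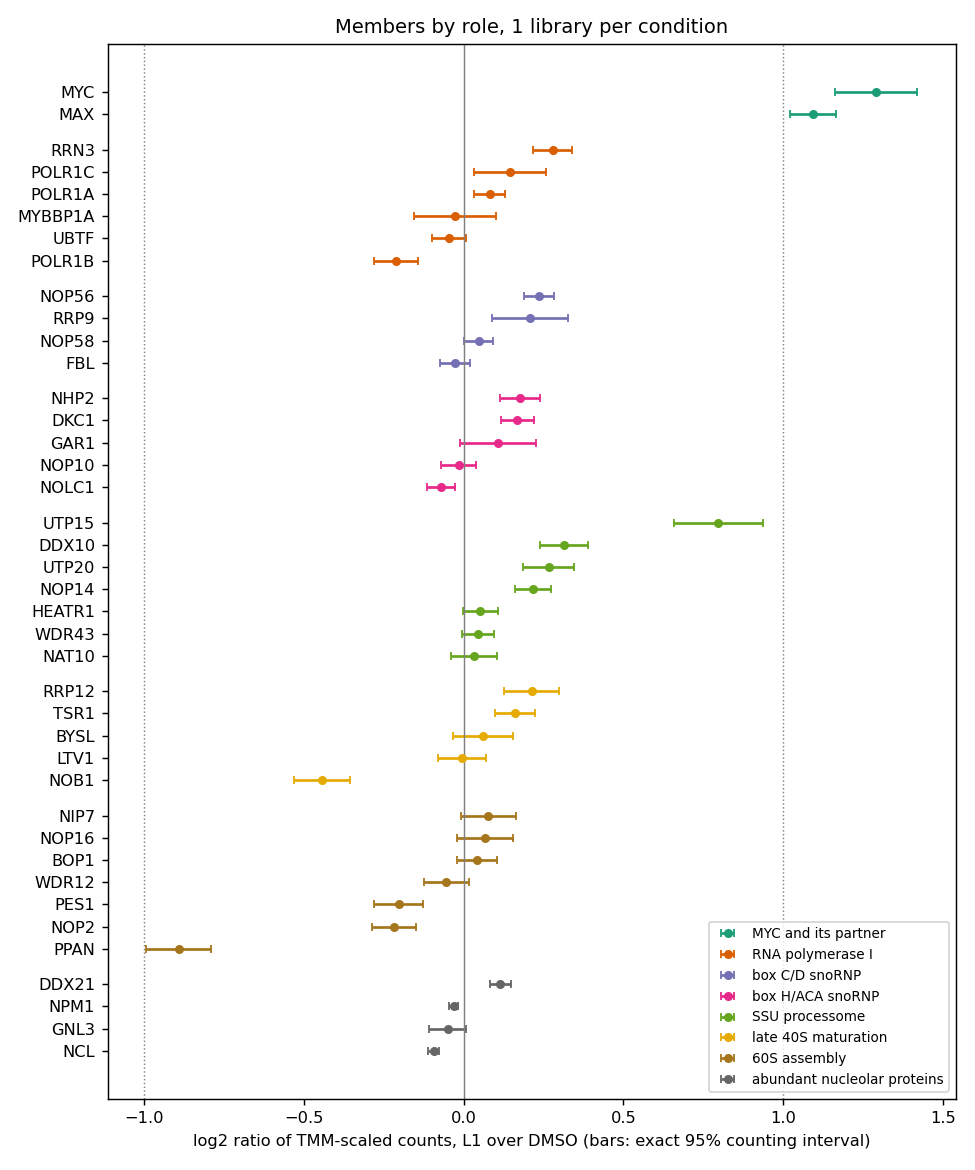
Log2 ratio of TMM-scaled counts, L1 over DMSO, for each member by role, with bars for the exact 95% counting interval of 1 library per condition and dotted lines at 2-fold. MYC (1.29) and MAX (1.09) stand apart from the ribosome factors, all 7 SSU processome genes lie above 0, and the lowest value is that of PPAN (-0.89).

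The SSU processome is the large particle that folds and cuts the precursor of the 40S subunit. All 7 members of this group had a log2 ratio above 0, with a median of 0.22, and the whole interval was above 0 for 4 and held 0 for 3. Among the genes with at least 1000 counts, 2966 of 6479 were above 0, and 34.1% had the whole interval above 0. UTP15, a subunit of the part that is laid down first on the precursor, was the only ribosome factor among the 38 that was at least 1.5-fold higher. It had 697 counts under DMSO and 1045 under L1, with FPKM of 3.47 and 6.03, the lowest levels per length of the 40 members in DMSO. The L1 library was 1.74-fold higher (log2 ratio 0.80, interval 0.66 to 0.94), above 96.9% of genes with at least 1000 counts in a library. UTP15 reached 1000 counts only in the L1 library, where it was higher, so this rank depends in part on that filter. WDR43, which belongs to the same part, had 6674 and 5943 counts (0.05), and HEATR1, another of its subunits, had 5640 and 5044 counts (0.05), both with intervals that held 0. UTP15 lies on chromosome 5 from 73565443 to 73583377, plus strand, and shares 244 exon bases with ANKRA2 on the opposite strand, which had 301 and 219 counts.

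DDX10, a DEAD-box RNA helicase, had 2742 counts under DMSO and 2940 under L1 (log2 ratio 0.31, interval 0.24 to 0.39). UTP20 had 2481 and 2575 counts (0.27, interval 0.19 to 0.35), and NOP14 had 4897 and 4911 counts (0.22, interval 0.16 to 0.27). Both are subunits that join the particle around the precursor. NAT10, the acetyltransferase of 18S ribosomal RNA, had 3322 and 2932 counts (0.03), and its interval held 0. For HEATR1, exons of LGALS8 on the opposite strand cover 2095 bases of its exons, and LGALS8 had 3451 and 3488 counts (0.23). The sources used here do not give whether strand was used in counting.

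Late 40S factors carry the small subunit precursor out of the nucleolus and finish it. RRP12, needed for export, had 2165 counts under DMSO and 2164 under L1 (log2 ratio 0.21, interval 0.13 to 0.30), and TSR1, a GTPase-like factor, had 4113 and 3966 counts (0.16, interval 0.10 to 0.22). TSR1 shares 1146 exon bases with SRR on the opposite strand, which had 325 and 291 counts. BYSL, the scaffold bystin, had 1954 and 1759 counts (0.06), and LTV1, an export factor, had 3168 and 2725 counts (-0.0042), both with intervals that held 0. NOB1, the nuclease that makes the last cut of 18S ribosomal RNA, went the other way. It had 2754 counts under DMSO and 1747 under L1, FPKM of 41.2 and 30.3, and a log2 ratio of -0.44 (interval -0.53 to -0.36). Only 10.1% of genes with at least 1000 counts had a lower ratio than NOB1. The antisense gene AC092115.3, which shares 429 exon bases with NOB1, had 140 and 83 counts (-0.54). LTV1 shares exon bases on its strand with AL049844.1 (17 and 10 counts) and AL049844.3 (0 in both libraries). Summed over the chain of overlapping genes that also takes in PHACTR2, which shares no exon bases with LTV1 itself and had 435 and 770 counts, the log2 ratio was 0.17.

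The 7 genes of 60S assembly had a median of -0.05, which turned to 0.04 with overlapping genes summed. The whole interval was above 0 for 0 of them and below 0 for 3, beside 34.1% and 41.8% of the genes with at least 1000 counts. BOP1, PES1 and WDR12 form the PeBoW complex, which is needed to process the 60S precursor. BOP1 had 4318 counts under DMSO and 3834 under L1 (log2 ratio 0.04, interval -0.02 to 0.10), PES1 had 3234 and 2424 (-0.20, interval -0.28 to -0.13) and WDR12 had 3590 and 2982 (-0.05, interval -0.13 to 0.02). PES1 was thus below both partners, with an interval clear of that of BOP1 and ending just below that of WDR12. NOP16, with 2221 and 2007 counts (0.07), and NIP7, with 2318 and 2110 counts (0.08), had intervals that held 0. Each shares exon bases with a gene on the opposite strand, NOP16 with HIGD2A (2177 and 1471 counts) and NIP7 with COG8 (1153 and 778 counts).

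PPAN, a 60S assembly factor of the nucleolus, had the lowest ratio of all 40 members. It had 2474 counts under DMSO and 1151 under L1, FPKM of 26.9 and 14.5, and a log2 ratio of -0.89 (interval -0.99 to -0.79), below which lay 2.62% of genes with at least 1000 counts. PPAN (ENSG00000130810, chromosome 19 from 10106289 to 10111634, plus strand) shares 1447 exon bases with the annotated readthrough gene PPAN-P2RY11, and 56.6% of its 31-base words occur in other transcripts. PPAN-P2RY11 had 53 counts under DMSO and 1120 under L1, a 24.5-fold higher value in L1 (log2 ratio 4.61, interval 4.22 to 5.04). P2RY11, a purinergic receptor gene downstream, had 251 and 190 counts. The 3 genes summed to 2778 counts under DMSO and 2461 under L1, with a log2 ratio of 0.04 (interval -0.04 to 0.12). The lower value of PPAN was thus not seen for the locus as a whole.

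NOP2, a methyltransferase of 28S ribosomal RNA, was also lower beside a higher overlapping gene, but here their sum was higher in L1. It had 4055 counts under DMSO and 3009 under L1 (log2 ratio -0.22, interval -0.29 to -0.15), with FPKM of 27.2 and 23.4. NOP2 (ENSG00000111641, chromosome 12 from 6556863 to 6568691, minus strand) shares 2550 exon bases with AC006064.6, an annotated gene from 6556886 to 6607367 that also shares 5964 exon bases with CHD4, a chromatin remodeller. AC006064.6 had 0 counts under DMSO and 3049 under L1. Against an assumed floor of 3 counts in the DMSO library that is 1178-fold higher (log2 ratio 10.2), and its counting interval began at a log2 ratio of 9.90. NOP2 and AC006064.6 together had 4055 and 6058 counts (log2 ratio 0.79, interval 0.73 to 0.85), whereas PPAN with PPAN-P2RY11 had a log2 ratio of 0.06. CHD4 had 23646 and 19927 counts (-0.03), and with it the locus of all 3 genes had a log2 ratio of 0.12. How reads over shared exons were assigned is not given in the sources used here, and its part in the values of PPAN and NOP2 was not tested. For the 31 members without an overlapping gene on their strand, the median log2 ratio was 0.08, from -0.44 (NOB1) to 1.29 (MYC). The whole interval was above 0 for 14 and below 0 for 6, beside 34.1% and 41.8% of the genes with at least 1000 counts.

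**Figure D3:**
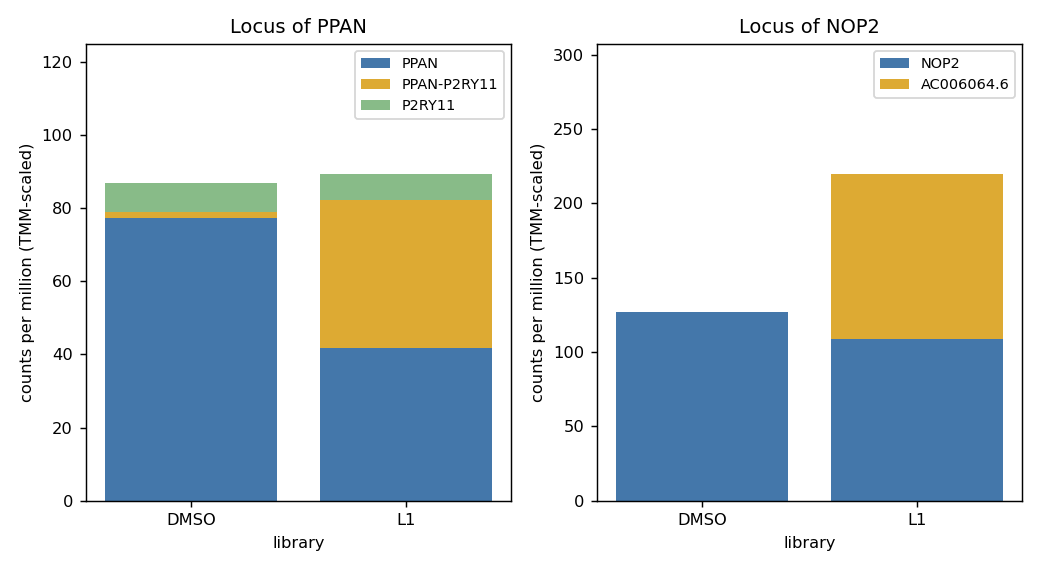
Scaled counts (TMM) relative to library size, stacked for PPAN, PPAN-P2RY11 and P2RY11 (left) and for NOP2 and AC006064.6 (right), in the DMSO and L1 libraries, 1 library each, both axes from 0. The PPAN bars are about equal in height, with PPAN-P2RY11 going from 53 counts in DMSO to 1120 in L1, and AC006064.6 appears only in L1, with 3049 counts on top of NOP2. CHD4, which shares 5964 exon bases with AC006064.6, is not drawn. With CHD4 the locus of NOP2 had a log2 ratio of 0.12.

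NPM1 and NCL had the highest levels per length of the 40 members. NPM1, nucleophosmin, a histone and ribosome chaperone, had 76694 counts under DMSO and 64746 under L1, with FPKM of 290.3 and 284. NCL, nucleolin, which binds nascent ribosomal RNA, had 59428 and 48042 counts, with FPKM of 209.6 and 196. The log2 ratio of NPM1 was -0.03 (interval -0.05 to -0.02) and that of NCL was -0.09 (interval -0.11 to -0.08), so both were lower by more than counting error, to 0.979 and 0.937 of the DMSO value. The sign for NPM1 was positive under total count and upper quartile scaling. Its 9 pseudogene copies had 4415 and 3429 counts in all, and NPM1 with its copies had a log2 ratio of -0.04. GNL3, nucleostemin, had 5412 and 4510 counts (-0.05, interval -0.11 to 0.01). DDX21, an RNA helicase that acts in transcription by RNA polymerase I and II, had 14798 and 13823 counts and was higher (log2 ratio 0.11, interval 0.08 to 0.15).

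**Figure D4:**
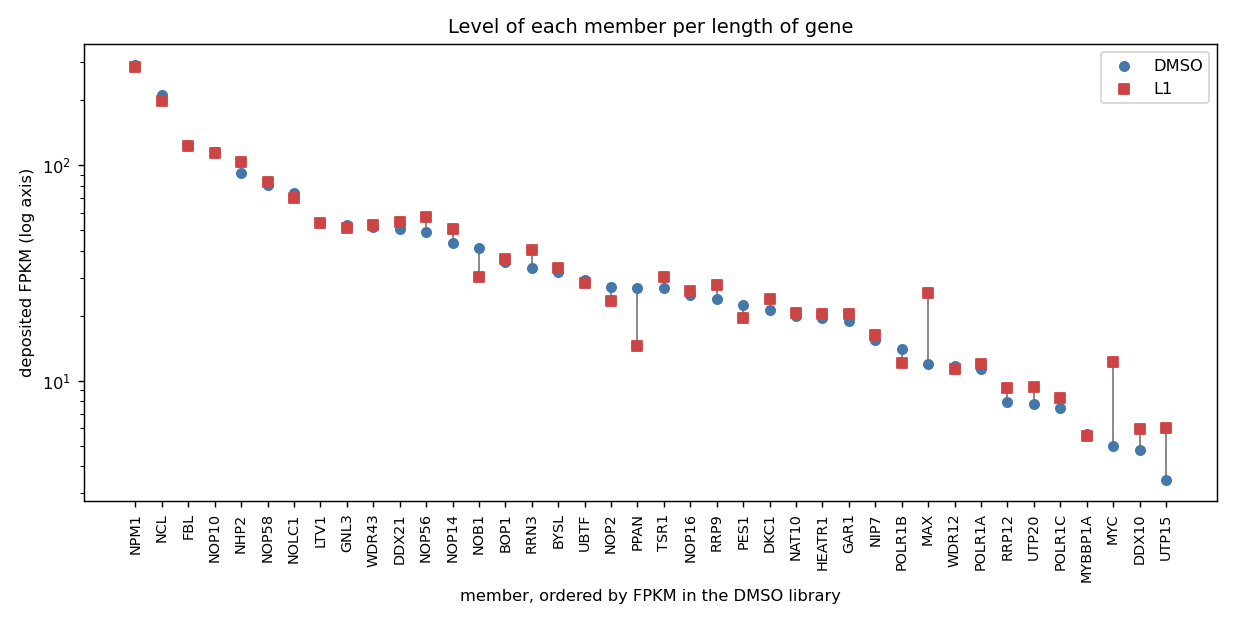
Deposited FPKM (log axis) of each member in the DMSO library (circles) and the L1 library (squares), ordered by the DMSO level, 1 library each. Levels run from 290.3 for NPM1 to 3.47 for UTP15 in DMSO, and the widest gaps between the libraries are those of MYC, MAX, PPAN and UTP15.

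Genes of the same machinery that are not members were taken from general lists. For comparison, 7.12% of all 18123 genes were at least 2-fold higher and 4.83% lower. For genes with at least 1000 counts in a library, these shares were 2.04% and 2.08%. Of 45 other SSU processome genes, 34 had a log2 ratio above 0, beside 8998 of all 18123 genes. Their median was 0.09, and 0 were at least 2-fold higher or lower. The highest were WDR46 (2630 counts under DMSO, 3057 under L1, log2 ratio 0.43) and BMS1, a GTPase (2333 and 2636, 0.39), and the lowest SNU13 (3022 and 1997, -0.38) and IMP3 (3067 and 2073, -0.35). Of 60 other 60S assembly genes with enough counts, 42 were above 0, beside the same 8998 of 18123 genes. Their median was 0.07, and 1 was at least 2-fold lower. That gene, SENP3, a SUMO protease of the nucleolus, had 2582 and 822 counts (-1.44), while the readthrough gene SENP3-EIF4A1 had 3304 and 7267 (1.35), and the whole locus had a log2 ratio of -0.07. NOL8 (0.45) and PAK1IP1 (0.43) were the highest of that list, and NLE1 (-0.49) was next lowest to SENP3. The 11 other late 40S genes had a median of 0.03, from TRMT112 (-0.29) and NOL12 (-0.25) to RIOK2 (0.21) and PNO1 (0.48), and 0 were 2-fold changed.

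The other 20 genes of RNA polymerase I and its cofactors had a median log2 ratio of -0.08. PHF6, which binds ribosomal DNA chromatin, was the 1 gene at least 2-fold lower, with 1634 counts under DMSO and 662 under L1 (-1.09, interval -1.22 to -0.96), and TAF1C, a subunit of the promoter selectivity factor SL1, had 1069 and 583 (-0.66). POLR1D (0.38) and POLR2F (0.32), subunits shared with other polymerases, were the highest. The 22 genes of RNA polymerase III, which makes 5S ribosomal RNA and transfer RNAs, had a median of -0.05 and 0 past 2-fold, from GTF3C2 (-0.34) and BRF1 (-0.29) to BRF2 (0.47) and POLR3A (0.53). For the 26 genes of the exosome and ribosomal RNA trimming the median was -0.0050. ISG20L2 (-0.68) and RPP40 (-0.50) were at its low end, and C1D (0.53) and POP4 (0.40) at its high end. RMRP, an RNA without a poly(A) tail and with only 4 and 14 counts, was the 1 gene of that list at least 2-fold higher. Over the 162 genes with enough counts in 5 of these lists, all but that of RNA polymerase III, the median was 0.05. Of these, 103 were above 0, beside 8998 of all 18123 genes, whose median was -0.0040.

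Genes known in textbooks as MYC targets outside ribosome production had a median log2 ratio of -0.05 over 46 genes. Of these, 0 were at least 2-fold higher and 1 was lower. At least 1000 counts in a library were reached by 44 of them, and 2.04% and 2.08% of all genes at that depth passed 2-fold. TMEM97, a sterol-related membrane protein, was the lower gene, with 2027 counts under DMSO and 754 under L1 (-1.21, interval -1.34 to -1.09), and CDK4, a G1 kinase, had 7655 and 4265 (-0.63, interval -0.69 to -0.58). APEX1, a DNA repair nuclease, had 1403 and 2082 (0.78), and PUS1, a pseudouridine synthase of transfer RNA, had 1373 and 1786 (0.59). Genes that MYC is known to repress had a median of 0.24 over 18 genes (0.12 with log2(FPKM + 1), which has no value for GADD45B and CEBPA), and 7 of these were at least 2-fold higher and 0 lower, beside 7.12% and 4.83% of all genes. The highest with at least 100 counts were TXNIP, a thioredoxin inhibitor, with 1005 and 2383 counts (1.46, interval 1.35 to 1.57), and ARRDC3, an arrestin-like protein, with 279 and 562 counts (1.22, interval 1.01 to 1.44). DDIT4 (178 and 355 counts), CDKN1A (140 and 267), THBS1 (45 and 89), CEBPA (14 and 46) and GADD45B (11 and 80), named here after their values were seen, made up the rest of the 7. NDRG2 (-0.25) and NDRG1 (-0.19), which take their name from repression by N-myc, were the lowest. CDKN1B, a cyclin kinase inhibitor on the same list, had 2086 and 1774 counts (-0.02).

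**Figure D5:**
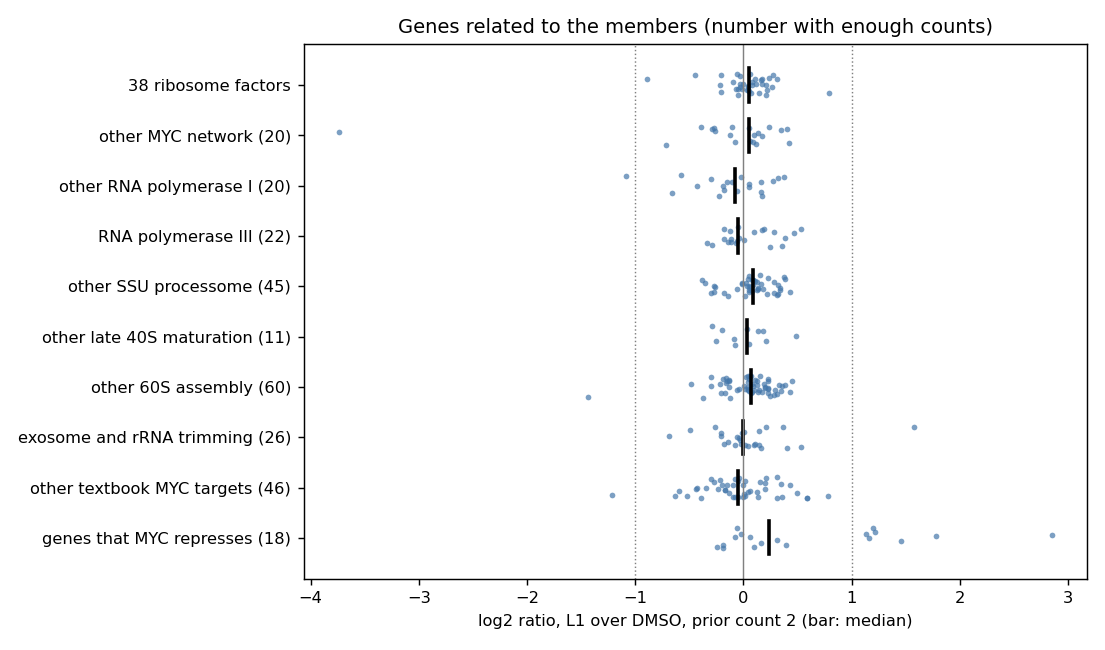
Log2 ratio of L1 over DMSO with a prior count of 2, 1 point per gene, for the 38 ribosome factors and 9 lists of related genes with at least 10 counts in a library, with black bars at the medians and dotted lines at 2-fold. The medians of the ribosome lists lie between -0.08 and 0.09, and the genes that MYC represses reach furthest to the right, with 7 of 18 past 2-fold.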

How the data were processed

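The authors sequenced 1 mRNA library of HEL cells per condition and deposited raw counts per Ensembl gene, without normalization, and FPKM values for 13924 genes. The submitters' processing notes name fastp 2.0, HISAT2 2.1.0, StringTie and hg38. The counting program and its use of strand are not given in the sources used here. From each FPKM file 1 line without an Ensembl gene was left out.

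Counts were scaled with TMM in edgeR 4.0.16 (R 4.3.3). Python 3.11.15 with numpy 2.4.6, pandas 2.3.3, scipy 1.17.1 and matplotlib 3.10.9 did the rest. Genes with at least 10 counts in a library were kept. Counts and medians over genes used a prior count of 2, and single genes none, with exact 95% Clopper-Pearson intervals. Gene positions, exon overlaps and 31-base words came from GENCODE release 29 on GRCh38 (58254 identifiers matched), and promoters from RefSeq (GRCh38.p14). The scripts were tested on simulated data. edgeR's quasi-likelihood test could not be fitted to 1 library per condition, so no p-value is given.

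All 40 members are named, with the 2 highest and 2 lowest genes with at least 100 counts of each of 9 related lists (276 genes), and some of the genes or copies that overlap members. Other genes, RMRP and CDKN1B among them, are named outside this rule, and not all of these are marked as such. The members and lists were chosen with earlier results of these data known, and lists came from general knowledge. The alternatives were other scalings (DESeq2 1.42.0 size factors among them), FPKM, prior counts, filters, thresholds and summed loci.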

Additional observations from a re-analysis of the deposited data

How the results depend on the processing

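No paired analysis was possible because DMSO and L1 have 1 library each. Depth limits little here, since all 40 members had at least 1000 counts in at least 1 library. MYC (724) and UTP15 (697) were below that under DMSO, and MYBBP1A (906) under L1. The spread between cultures was not measured. The median log2 ratio of the 40 members ranged from 0.03 to 0.11 over the alternatives. The number of members whose whole interval was above 0 went from 17 to 26 under total counts, which add 0.05 to every log2 ratio. The 2-fold count of lower members went from 0 to 1 at 1.5-fold, and that of higher members from 2 to 0 at 3-fold. The median of MYC and MAX was 1.09 with log2(FPKM + 1), where the added 1 shrinks low values. Members with an E-box made up 11.4% when only bases before the start were searched. With overlapping genes summed, NOP2 changed sign to 0.12 and PPAN to 0.038, because the counts of the locus replace those of the gene. The locus of NOP2 includes CHD4, with 23646 counts under DMSO and 19927 under L1. NPM1 changed sign to 0.018 under total counts and 0.0073 under upper quartile scaling. Of 240 values of the 40 members under alternatives, 222 stayed within the counting interval. Many of these could hardly differ from the main values. FPKM ratios equal the TMM-scaled count ratios to within 5.87e-06 on the log2 scale, so FPKM values differ only by the added constant. Summed loci leave the 31 members without an overlapping gene on their strand unchanged. The sign changed in 14 of the 240, 8 of them within the interval. Besides NOP2, PPAN and NPM1, the genes concerned were UBTF, MYBBP1A, FBL, NOP10 and LTV1, which lay just below 0 and turned positive under total counts. The median of the 60S group turned to 0.04 with overlapping genes summed, and that of the abundant nucleolar proteins to 0.0091 under total counts. Other medians close to 0 also changed sign. Under total counts, textbook MYC targets turned to 0.0021, RNA polymerase III to 0.0028 and the exosome list to 0.044 (0.033 under upper quartile scaling). With DESeq2 size factors, the RNA polymerase I members turned to -0.0038 and the other late 40S genes to -0.00022. The median of genes that MYC represses was 0.12 with log2(FPKM + 1) and 0.13 with log2(FPKM + 0.1).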

Other observations

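Levels per length were compared within complexes whose proteins are known to bind in fixed proportion. In the H/ACA core, NOP10 had the highest FPKM and GAR1 the lowest, 6.08-fold apart in the DMSO library and 5.59-fold in the L1 library. In the C/D core, FBL was highest and SNU13, which is not a member, lowest, 3.82-fold apart in DMSO and 4.89-fold in L1, and in PeBoW, BOP1 was highest and WDR12 lowest, 3.01-fold and 3.22-fold apart. The order at both ends of each complex was thus the same in the 2 libraries. The gene length implied by the counts and FPKM was 0.856 to 2.83 times the length of the annotated exons over the 40 members, with a median of 0.993, so levels per length rest on lengths that differ from GENCODE release 29 for some genes, NOP10 among them.

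Several members carry snoRNA genes within them, most of which guide modification of ribosomal RNA. GENCODE release 29 places 28 snoRNA genes within 9 members. Together they had 79 counts under DMSO and 72 under L1, and 3 of them reached 10 counts in a library, SNORA51 in NOP56 (7 and 15), RF00575 in NOP58 (12 and 2) and SNORD69 in GNL3 (12 and 10). snoRNAs lack a poly(A) tail and mRNA was captured on beads, so these counts say little of snoRNA levels.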
